A study of Homo sapiens with 78 samples.

Results

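A total of 95 of the 19652 genes listed for A549 cells met a rule that described genes lowered by interleukin-1β (IL-1β) and brought back up by the glucocorticoid budesonide. The genes were selected on measured values, the group means of log2(TPM + 0.5) at 6 h. TPM is a transcript level scaled to transcript length and library size. The rule asked for IL-1β minus not stimulated (NS) of -1 or less, budesonide alone minus NS between -0.5 and 0.5, cotreatment minus IL-1β of 0.7 or more, and a mean of at least 3 TPM in NS. The 6 h values are therefore given below as a description without a test, and tests were made on the libraries of 1, 2, 12 and 24 h, which the rule did not use.

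IL-1β is a proinflammatory cytokine that activates the transcription factor NF-κB in epithelial cells. Budesonide is an inhaled corticosteroid that activates the glucocorticoid receptor (GR), which raises the transcription of its own target genes and lowers that of many inflammatory genes. Cytokines also lower the mRNA of many epithelial genes, a side of the response that has received less study than induction.

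Poly(A) RNA came from A549, an established human lung carcinoma line with alveolar type II features, so all results are from 1 cell line in culture. The cells were left unstimulated (NS), or were given 1 ng/ml IL-1β (IL1B), 300 nM budesonide (Bud), or the combination, for 1, 2, 6, 12 or 24 h. The 20 groups held 78 libraries, 4 in 18 groups and 3 each in NS at 6 h and in the cotreatment at 12 h. The labels mention independent experiments without tying libraries to them, so p-values measure the spread between these libraries.

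All 9 epithelial markers reached 1 TPM, among them the keratin genes KRT8 and KRT18, and their summed level lay between 4260 and 22300 TPM per library. Of the markers of other cells, PTPRC, CD3E, COL1A2, PDGFRB, VWF, KDR and TEK stayed under 1 TPM in every library. Others were above it: 4 of 7 immune markers reached 1 TPM (summed level 5.27 to 45.5 TPM, led by CD68), 5 of 7 fibroblast markers (4.35 to 25.6 TPM, led by COL1A1) and 2 of 5 endothelial markers (0.0245 to 2.08 TPM). Their part in the results was not tested. Mitochondrially encoded genes held 11.8 to 17.2% of the summed TPM. At 6 h this share was 14.5 to 15.0% in NS, 12.7 to 14.1% with IL-1β and 13.9 to 14.5% with the cotreatment, and its part in the results was not tested. The 5 libraries farthest from their group's median profile (root mean square distance 0.433 to 0.623, against 0.301 for the next) were cotreatment 12 h replicate 2, IL-1β 24 h replicate 2, budesonide 2 h replicate 3, budesonide 12 h replicate 2 and cotreatment 1 h replicate 4. None of them was at 6 h. In RNA from whole cultures, fewer cells expressing a gene and less RNA per cell cannot be told apart.

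At 6 h, IL-1β minus NS lay between -2.95 and -1.01 (median -1.40) over the 95 genes on the log2 scale. Budesonide alone was near NS (median 0.04), and the cotreatment lay 0.70 to 1.66 above IL-1β (median 0.90). The cotreatment returned a median of 65.1% of the log2 loss (36.7 to 128.5%), the cotreatment mean reached the NS mean for 3 genes (WNK4, ALAD and MYOM2), and 10 were still at -1 or below relative to NS. Every IL-1β library was below every NS library for 90 of the 95 genes, every IL-1β library was below every cotreatment library for 82, and every cotreatment library was below every NS library for 60. For WNK4 and MYOM2 the NS and IL-1β libraries overlapped (2.72 to 10.4 against 1.30 to 6.30 TPM, and 2.75 to 7.59 against 1.29 to 2.77 TPM), and neither passed with IL-1β at 2, 12 or 24 h. By the call used below, 4.81% of all genes tested were called down with IL-1β at 6 h, 2.93% up with the cotreatment against IL-1β and 2.33% down with the cotreatment against NS. These 6 h comparisons chose the genes, so the counts without overlap are partly set by the rule. The share of all genes without such overlap was not computed.

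**Figure D1:**
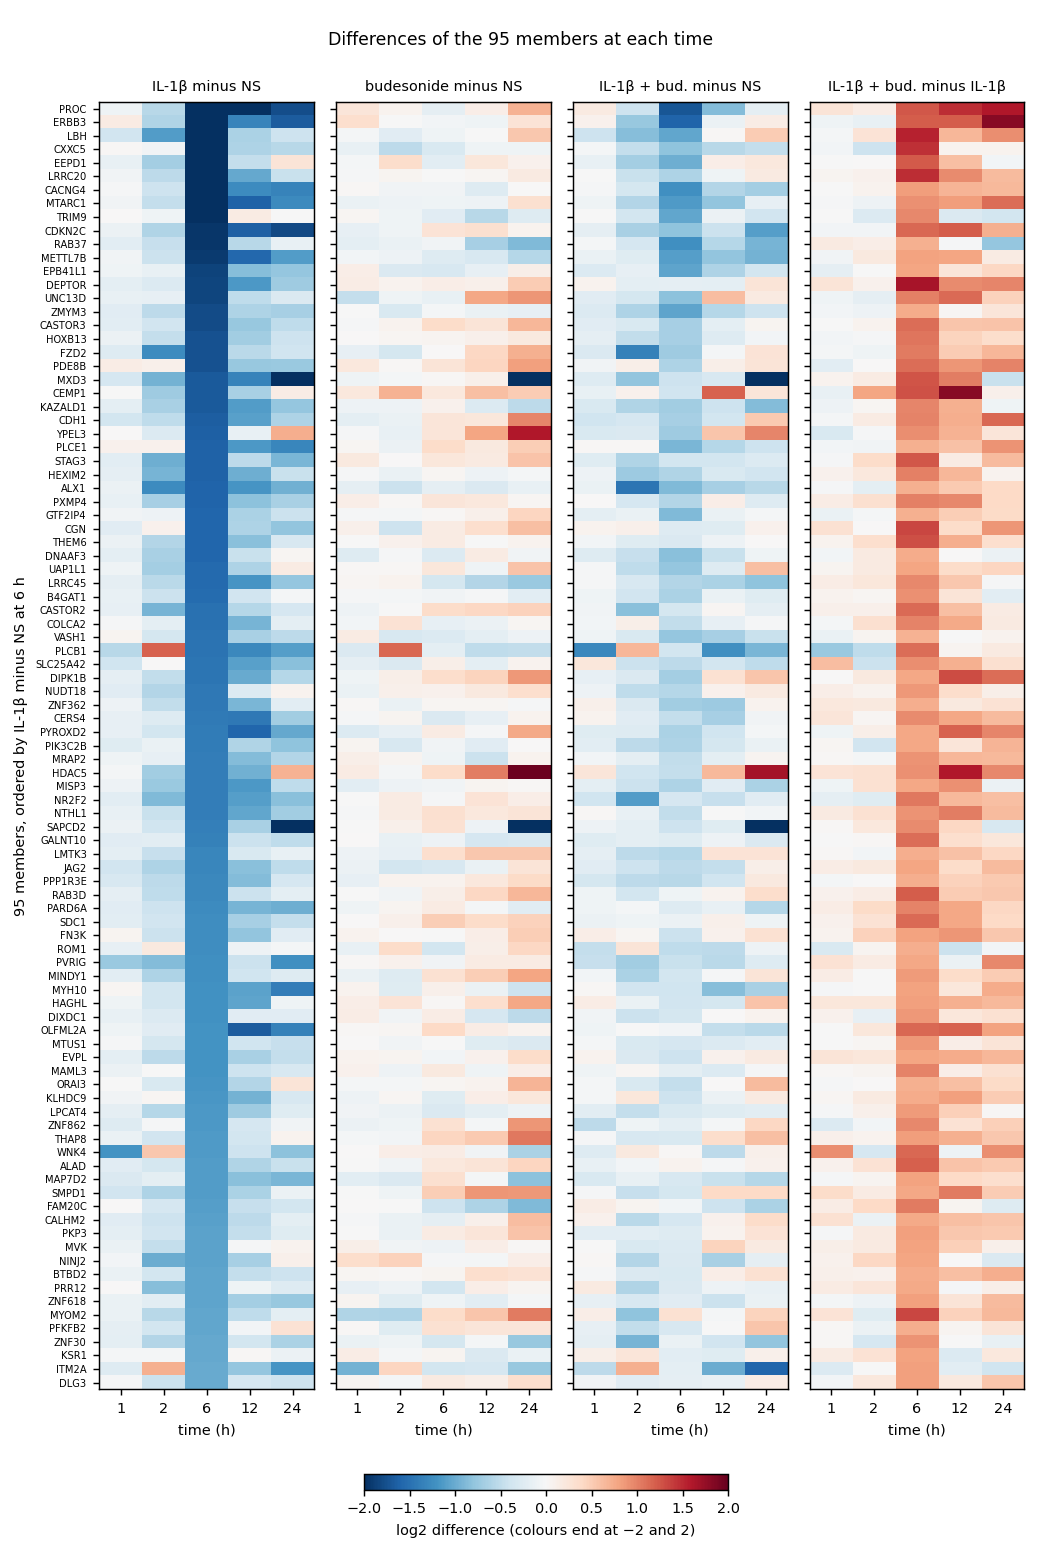
Each row is 1 of the 95 genes, ordered by IL-1β minus NS at 6 h, and each column is a time (1 to 24 h). Colour gives the log2 difference in the 4 comparisons. The IL-1β panel is darkest at 6 h, where the genes were chosen, and PROC, MTARC1, CDKN2C and OLFML2A stay blue at 12 and 24 h. MXD3 and SAPCD2 turn blue with budesonide alone at 24 h, and HDAC5 and YPEL3 turn red.

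PROC, which encodes the anticoagulant zymogen protein C, had the lowest IL-1β minus NS at 6 h. Its level was 9.20, 8.13 and 6.63 TPM in NS and 0.627, 0.349, 0.918 and 0.548 TPM with IL-1β. Budesonide alone gave 6.21, 7.45, 5.30 and 9.23 TPM, and the cotreatment 2.70, 2.33, 1.54 and 1.89 TPM. The cotreatment libraries lay above all IL-1β libraries and below all others, so the return was partial. The gene spans chr2:127418427-127429242 on the forward strand (GRCh38, 9 exons in the transcript that the annotation marks as canonical).

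Promoter sequences of RefSeq (GRCh38.p14) were held for 62 of the 95 genes. The 250 bases before and the 50 bases after the start were searched on both strands. The GR hexamer TGTTCT was in 6 of the 62 (9.68%) and in 8.79% of all 10576 promoters of genes tested. The AP-1 motif TGANTCA was in 4.84% of the members' promoters (MXD3, MRAP2 and ROM1) against 4.7%. The NF-κB motifs GGAATTTCC and GGGACTTTC were in 0 of the 62, against 0.454% and 0.378% of all. The interferon response motif TTTCNNTTT was in 4.84% against 7.2%, the CREB motif TGACGTCA in 1.61% against 3.15% and the E box CANNTG in 72.6% against 60.5%. Of the promoters of PROC and EPB41L1, which both hold the GR hexamer, the 250 bases before the start are shown. These genes were picked because one is the most lowered and the other among the most abundant. Capitals mark the hexamer, which reads AGAACA on the strand shown, and a match of letters is not evidence of binding.
PROC, chr2:127418177-127418426, forward strand: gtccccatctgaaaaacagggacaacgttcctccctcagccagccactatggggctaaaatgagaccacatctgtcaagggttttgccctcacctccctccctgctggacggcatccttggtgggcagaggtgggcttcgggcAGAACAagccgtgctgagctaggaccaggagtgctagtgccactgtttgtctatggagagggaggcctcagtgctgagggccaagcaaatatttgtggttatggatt
EPB41L1, chr20:36091164-36091413, forward strand: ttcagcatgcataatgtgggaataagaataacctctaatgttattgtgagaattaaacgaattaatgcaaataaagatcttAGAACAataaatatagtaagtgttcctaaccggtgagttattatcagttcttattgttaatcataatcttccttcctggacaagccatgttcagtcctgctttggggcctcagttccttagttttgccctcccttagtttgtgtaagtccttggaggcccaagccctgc

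ERBB3, a receptor tyrosine kinase that binds neuregulins and signals as a heterodimer, followed PROC in size. At 6 h it was at 13.2, 13.2 and 25.1 TPM in NS, at 1.53, 2.74, 1.58 and 1.93 TPM with IL-1β, and at 5.13, 4.60, 5.71 and 4.88 TPM with the cotreatment. With budesonide alone it was at 9.24, 10.6, 16.7 and 37.2 TPM, the widest spread of its groups at that time. No IL-1β library reached the lowest cotreatment library, and no cotreatment library reached the lowest NS library.

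LBH, a transcriptional cofactor, was the most abundant member, at 100, 102 and 137 TPM in NS at 6 h. It was at 17.6, 16.8, 12.3 and 31.7 TPM with IL-1β and at 49.0, 50.4, 51.1 and 70.1 TPM with the cotreatment. CXXC5, a zinc finger protein that binds unmethylated CpG DNA, was at 31.3, 19.3 and 29.4 TPM in NS, 5.41, 3.36, 5.39 and 6.42 TPM with IL-1β and 17.8, 16.3, 12.9 and 12.3 TPM with the cotreatment. In both genes the 3 groups did not overlap. Of the other genes with the lowest IL-1β minus NS at 6 h, EEPD1 stood at -2.20, LRRC20 at -2.09, CACNG4, a calcium channel subunit, at -2.07 and MTARC1, a mitochondrial molybdenum enzyme, at -2.05.

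The other abundant genes in NS at 6 h were MTUS1 (101 TPM), the pseudogene GTF2IP4 (89.9 TPM), EPB41L1 (88.3 TPM) and SDC1 (70.5 TPM). SDC1 encodes syndecan-1, a heparan sulfate proteoglycan of epithelial surfaces. It was at 69.5, 69.8 and 72.2 TPM in NS, 34.4, 26.0, 27.2 and 30.6 TPM with IL-1β, and 66.0, 67.3, 67.3 and 59.6 TPM with the cotreatment. The cotreatment libraries of SDC1 came close to NS without reaching it. With budesonide alone SDC1 was at 103, 98.4, 98.7 and 99.1 TPM, above all NS libraries, and at 0.498 it was the gene nearest inside the limit for budesonide alone.

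The limits of the rule cut through continuous values. Nearest inside the IL-1β limit were DLG3 (-1.01), ITM2A (-1.01) and KSR1 (-1.02), and nearest outside it VPS37D (-0.98), GAS2L1 (-0.98) and H4C15 (-0.97). For cotreatment minus IL-1β these were VASH1, PLCE1 and GTF2IP4 (0.70, 0.71 and 0.71) inside and LDLRAD4, VGLL3 and DENND1C (each 0.70) outside. For budesonide alone, SDC1, SMPD1 and THAP8 (0.50, 0.49 and 0.44) were inside and PPM1H, CRACR2B and SHMT1 (0.50, 0.53 and 0.54) outside. For the level in NS, HOXB13, PARD6A and SLC25A42 were at 3.02 to 3.03 TPM, and DBP, CLDN3 and CLIP3 at 2.98, 2.77 and 2.71 TPM.

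The time course of the 95 genes was then examined in the libraries that the rule had not used. The mean over the 95 genes, relative to the NS mean of the same time, was -0.225 to -0.131 in the IL-1β libraries at 1 h and -0.486 to -0.312 at 2 h. In the later IL-1β libraries it was -0.810 to -0.690 (12 h) and -0.589 to -0.439 (24 h). With the cotreatment it was -0.173 to -0.021 at 1 h and -0.414 to -0.273 at 2 h, where the libraries overlapped with those of IL-1β. It was -0.312 to -0.141 at 12 h and -0.187 to -0.039 at 24 h, above every IL-1β library of the same time. With budesonide alone it was -0.087 to 0.192 at 12 h and 0.055 to 0.264 at 24 h. At 24 h every budesonide library was above every NS library.

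**Figure D2:**
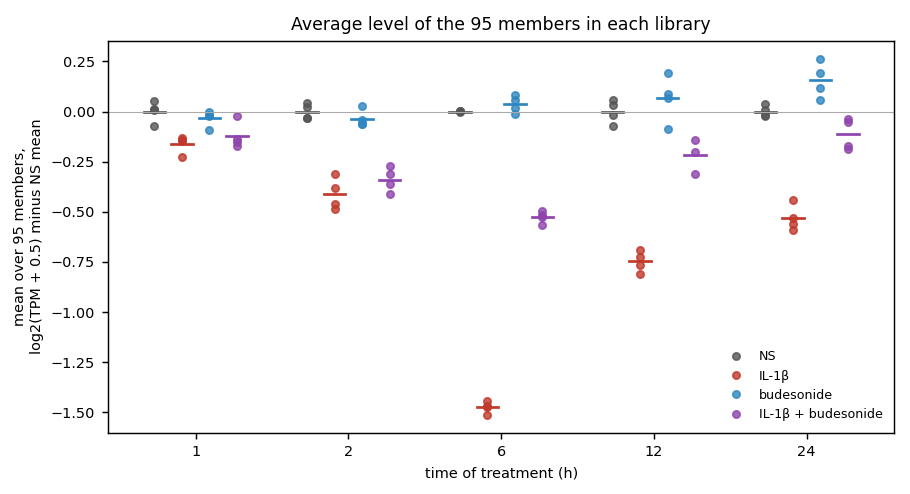
Each point is 1 library and shows the mean over the 95 genes of log2(TPM + 0.5) minus the NS mean of the same time, and short lines are group means. Horizontal: time (h). The IL-1β libraries are lowest at 6 h, where the genes were chosen, and cotreatment libraries lie above IL-1β at 12 and 24 h and overlap with it at 1 and 2 h.

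Calls required an adjusted p of 0.05 or less together with a log2 difference of 1 or more in size. The p-values came from limma and were adjusted by the Benjamini-Hochberg method across 13327 tested genes, which included all 95. With IL-1β against NS, 0 of the 95 genes were called down at 1 h in limma (0.0075% of all genes tested), with 8 lower at an unadjusted p under 0.05. At 2 h 3 were called down (0.503% of all), at 12 h 24 (3.08% of all) and at 24 h 13 (4.31% of all). In total 28 were called down at any of these times, 11 of them at both 12 and 24 h, and 67 at none. With no minimum fold change, 45 passed the test downward at 2 h (7.59% of all genes), 69 at 12 h (20.8%) and 53 at 24 h (18.5%), and 49 did so at both 12 and 24 h. Here and below, counts at an unadjusted p, or over more than 1 time, have no share of all genes beside them. Whether they exceed the general rate was not tested.

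For IL-1β minus NS, the medians of the 95 genes at 1, 2, 12 and 24 h were -0.15, -0.43, -0.65 and -0.45. Over all genes tested it was -0.04, -0.03, -0.05 and -0.05. The genes called at 2 h were LBH (-1.12 ± 0.28, SE), FZD2 (-1.26 ± 0.14), a Wnt receptor, and ALX1 (-1.25 ± 0.11), a homeodomain transcription factor. LBH lost its call without the libraries numbered 1 (adjusted p = 0.070). A group of 18 genes passed at none of 2, 12 and 24 h, even without a minimum fold change. They included TRIM9, UNC13D, CGN, PKP3, DLG3, KSR1 and PLCB1. TRIM9, at -2.01 at 6 h, was at 0.16 ± 0.21 at 12 h. PLCB1, a phospholipase C, was at -1.28 at 12 h with an SE of 0.62, so its spread was too wide for a call.

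The comparison of the cotreatment with IL-1β alone addressed whether budesonide raised these genes in stimulated cells at the other times. It shares the IL-1β libraries with the comparison above, so the values are set side by side only. In limma 0 genes were called up at 1 h (0.15% of all genes tested) with 4 at an unadjusted p under 0.05, and 0 at 2 h (0.773% of all) with 9. At 12 h 10 were called up (3.04% of all) and at 24 h 5 (3.21% of all), 13 genes in total. The 24 h count was 8 without the libraries numbered 1 and 4 to 6 without those of another number. PROC and DIPK1B were called at both times. Without a minimum fold change, 57 passed upward at 12 h (16.5% of all) and 50 at 24 h (14.7% of all), and 37 did so at both times. The median of the 95 genes was 0.02, 0.07, 0.55 and 0.42 at 1, 2, 12 and 24 h, against -0.03 at 12 h and 0.00 at 24 h over all genes tested.

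Of the 24 genes called down at 12 h, all 24 had a cotreatment mean above the IL-1β mean, 7 were called up and a median of 66.2% of the log2 loss was returned. Of the 13 called down at 24 h, 11 had a higher cotreatment mean, 3 were called up and the median return was 60.2%. Among all genes tested that were called down with IL-1β, 75.9% of 410 at 12 h and 43% of 575 at 24 h had a higher cotreatment mean, 17.8% and 13% were called up, and the median return was 35.5% and -12.8%. In every such set the same IL-1β libraries enter both comparisons, and the difference between the sets was not tested. At 2 h, 45 genes passed the test downward without a minimum fold change, and 4 of them passed upward with the cotreatment. Genes called in both directions at a same time were PROC at 12 and 24 h, ERBB3 and MTARC1 at 24 h, and CDKN2C, MXD3, DIPK1B, PYROXD2, NTHL1 and OLFML2A at 12 h. The IL-1β calls of DIPK1B (-1.01) and NTHL1 (-1.04) were close to the minimum fold. That of DIPK1B fell under it with a pseudocount of 1, with median-of-ratios or quantile scaling, and without the libraries numbered 3 or 4 (-0.99 to -0.93), and that of NTHL1 with median-of-ratios scaling (-0.98) and without the libraries numbered 3 (-0.97).

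At 12 h PROC was at 10.0, 10.1, 6.85 and 13.0 TPM in NS, 1.43, 1.49, 1.29 and 1.97 TPM with IL-1β, and 3.41, 8.52 and 4.55 TPM with the cotreatment. It fell by 2.34 ± 0.23 on the log2 scale with IL-1β (adjusted p = 3e-13) and was 1.47 ± 0.25 higher with the cotreatment than with IL-1β (adjusted p = 1.9e-06). At 24 h the levels were 7.14, 7.60, 4.76 and 8.69 TPM in NS, 2.23, 2.02, 0.847 and 1.91 TPM with IL-1β, and 6.97, 6.04, 3.91 and 8.09 TPM with the cotreatment. The IL-1β libraries lay below all others at both times, and at 24 h the cotreatment and NS libraries overlapped (difference -0.17 ± 0.23, adjusted p = 0.60). PROC rose by 0.69 ± 0.23 with budesonide alone at 24 h (adjusted p = 0.011) and was at 0.13 ± 0.23 at 12 h.

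**Figure D3:**
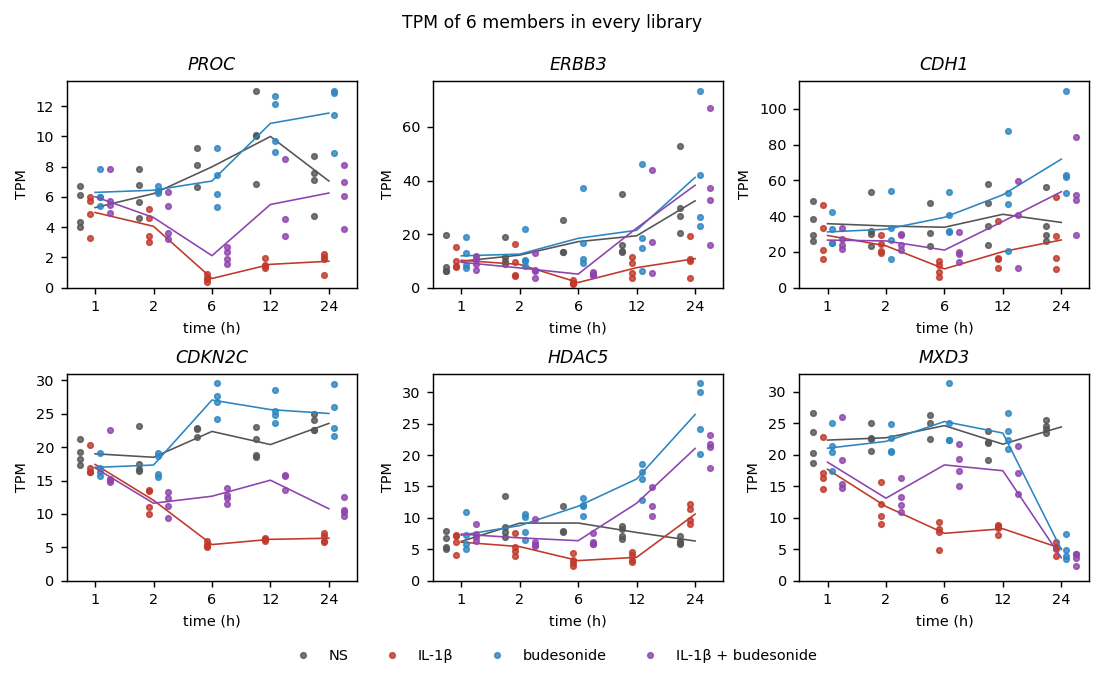
TPM of 6 of the 95 genes in every library (points) with group means (lines), by time (h) and treatment, each panel with its own axis from 0. IL-1β libraries of PROC and CDKN2C stay low from 6 h on, ERBB3 and CDH1 vary widely within groups, HDAC5 climbs with budesonide by 24 h, and MXD3 is at 2.40 to 7.45 TPM in all treated groups at 24 h.

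The 95 genes were grouped by known role after their values had been seen, so the groups are an ordering and not a test. Passing in the role counts needed no minimum fold change. Of all 95 genes, 72.6% and 55.8% passed downward with IL-1β at 12 and 24 h (20.8% and 18.5% of all genes tested). Upward with the cotreatment, 60.0% and 52.6% passed (16.5% and 14.7% of all genes tested). Whether any role group differed from the 95 was not tested. Among the 9 receptors, ligands and cell surface signals, 7 passed the test downward with IL-1β at 12 h and 7 at 24 h, and 5 and 7 passed upward with the cotreatment. ERBB3 at 24 h was at 29.7, 20.4, 26.7 and 52.9 TPM in NS, 10.7, 3.45, 9.89 and 19.4 TPM with IL-1β, and 32.8, 15.9, 37.3 and 67.0 TPM with the cotreatment. All IL-1β libraries were below all NS libraries, while the lowest cotreatment library lay within the IL-1β range. ERBB3 fell by 1.66 ± 0.50 with IL-1β (adjusted p = 0.0064) and rose by 1.81 ± 0.50 with the cotreatment (adjusted p = 0.0029).

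At 12 h ERBB3 fell by 1.32 ± 0.50 with IL-1β (adjusted p = 0.032), and cotreatment minus IL-1β was 1.21 ± 0.54 (adjusted p = 0.077). Without the 5 libraries that stood apart, ERBB3's cotreatment difference was 1.94 at 12 h (adjusted p = 0.0046) and 1.38 at 24 h (adjusted p = 0.019). The 12 h fall with IL-1β lost its call when the libraries numbered 1, 2 or 3 were left out (adjusted p = 0.063, 0.071 and 0.16). With the replicate number as a block, the adjusted p of ERBB3 in limma was 0.00053 for that fall. For its 12 h cotreatment difference it was 0.0034.

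FZD2, the Notch ligand JAG2 and SDC1 also fell without reaching the minimum fold change at 12 h (-0.54 ± 0.14, -0.84 ± 0.16 and -0.67 ± 0.07). With the cotreatment at 24 h, a later time than that fall, they were 0.67 ± 0.14, 0.63 ± 0.16 and 0.40 ± 0.07 higher than with IL-1β (adjusted p = 0.00011, 0.0012 and 1.3e-05). At 24 h the budesonide-alone libraries of FZD2 (21.2 to 24.3 TPM) and SDC1 (95.1 to 114.5 TPM) lay above all NS libraries. Those NS libraries were at 11.1 to 16.3 and 72.1 to 82.0 TPM, and the IL-1β libraries at 7.77 to 12.3 and 51.4 to 62.6 TPM. For JAG2, budesonide alone and NS overlapped (7.6 to 9.7 against 5.3 to 8.4 TPM). CACNG4 was called down at both times (-1.26 ± 0.14 and -1.33 ± 0.14), and its cotreatment difference was 0.67 ± 0.15 and 0.65 ± 0.14.

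The 12 genes of cell junctions, polarity and the cytoskeleton included the adherens junction protein E-cadherin (CDH1), cingulin (CGN) of tight junctions, the desmosomal proteins plakophilin 3 (PKP3) and envoplakin (EVPL), and the polarity proteins PARD6A and DLG3. With IL-1β, 8 passed downward at 12 h and 7 at 24 h, and with the cotreatment 4 and 6 passed upward. CDH1 was at 34.6, 24.1, 47.5 and 57.9 TPM in NS at 12 h, 16.7, 10.8, 15.8 and 37.5 TPM with IL-1β and 40.6, 11.2 and 59.4 TPM with the cotreatment. All 3 groups overlapped, and the lowest cotreatment library was the one that stood apart.

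CDH1 fell by 1.08 ± 0.41 with IL-1β at 12 h (adjusted p = 0.031), a call lost when the libraries numbered 1 or 3 were left out (adjusted p = 0.13 and 0.22). Its cotreatment difference was 0.72 ± 0.44 at 12 h (adjusted p = 0.21) and 1.14 ± 0.41 at 24 h (adjusted p = 0.025). Without the 5 libraries that stood apart these were 1.41 (adjusted p = 0.0067) and 0.78 (adjusted p = 0.091), so the call moved from 24 h to 12 h. The 24 h call was also lost without the libraries numbered 1 or 3 (adjusted p = 0.087 and 0.17). With the replicate number as a block, the adjusted p of CDH1 in limma was 0.00077 for the 12 h fall. For its cotreatment difference it was 0.047 at 12 h, still under the minimum fold, and 0.00044 at 24 h. EVPL had smaller errors. It fell by 0.65 ± 0.11 at 12 h and by 0.48 ± 0.11 at 24 h, and was 0.73 ± 0.12 and 0.66 ± 0.11 higher with the cotreatment. PARD6A fell by 0.93 ± 0.14 and 0.98 ± 0.14. CGN was at -0.61 ± 0.33 and -0.79 ± 0.33, and did not pass with IL-1β at either time.

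Among the 4 cell cycle regulators, CDKN2C, the CDK4 and CDK6 inhibitor p18INK4C, kept a low level with IL-1β. It was at 21.3, 18.8, 18.6 and 23.0 TPM in NS at 12 h, 6.28, 6.23, 6.34 and 5.94 TPM with IL-1β, and 13.6, 15.7 and 15.9 TPM with the cotreatment. These groups did not overlap. CDKN2C fell by 1.64 ± 0.11 with IL-1β at 12 h and by 1.81 ± 0.11 at 24 h. Its cotreatment difference was 1.21 ± 0.12 at 12 h and 0.71 ± 0.11 at 24 h (adjusted p = 5.1e-13 and 2.6e-07). Against NS the cotreatment was still 1.10 ± 0.11 lower at 24 h.

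Among the 12 genes of intracellular signaling were DEPTOR, an inhibitor of the mTOR kinase, and CASTOR2, of the family of arginine sensors upstream of mTOR complex 1. CASTOR3, placed with them by its name only, had no match in the annotation. DEPTOR had the highest cotreatment minus IL-1β at 6 h (1.66). It fell by 1.15 ± 0.25 with IL-1β at 12 h and was 0.95 ± 0.27 higher with the cotreatment (adjusted p = 0.000115 and 0.0036). CASTOR2 and CASTOR3 fell by 0.57 ± 0.12 and 0.76 ± 0.15 at 12 h, with cotreatment differences of 0.61 ± 0.13 and 0.56 ± 0.16. PLCE1, a Ras-regulated phospholipase C, was called down at 12 and 24 h (-1.15 ± 0.15 and -1.30 ± 0.15). DIXDC1, KSR1, PFKFB2, PLCB1 and WNK4 did not pass with IL-1β at 2, 12 or 24 h.

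Of the 15 transcription factors and chromatin proteins, 9 passed downward with IL-1β at 2 h, 11 at 12 h and 8 at 24 h. The shares over all 95 genes were 47.4%, 72.6% and 55.8%, and over all genes tested 7.59%, 20.8% and 18.5%. NR2F2, the orphan nuclear receptor COUP-TFII, fell by 0.88 ± 0.19 at 2 h, 1.11 ± 0.19 at 12 h and 0.83 ± 0.19 at 24 h. Its cotreatment difference was -0.24 ± 0.19 at 2 h and 0.65 ± 0.20 and 0.60 ± 0.19 at 12 and 24 h. CXXC5 fell by 0.62 ± 0.19 at 12 h, where its cotreatment difference was 0.07 ± 0.20, against 1.46 at 6 h. LBH no longer passed at 12 h with IL-1β (-0.64 ± 0.28, adjusted p = 0.073), and was 0.93 ± 0.28 higher with the cotreatment at 24 h (adjusted p = 0.0070).

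The 18 metabolic enzymes and carriers were the largest role group, so their counts are not ranked against the others. At 12 h 16 passed downward with IL-1β and 17 upward with the cotreatment. At 24 h the counts were 11 and 11. MTARC1 at 24 h was at 8.11, 8.96, 7.53 and 9.06 TPM in NS, 2.65, 5.19, 2.28 and 3.20 TPM with IL-1β and 7.57, 7.82, 8.10 and 6.45 TPM with the cotreatment. All IL-1β libraries lay below the others, and NS and cotreatment overlapped. MTARC1 fell by 1.27 ± 0.16 with IL-1β and rose by 1.11 ± 0.16 with the cotreatment (adjusted p = 9.7e-10 and 4.7e-08). Without the libraries numbered 3 the latter was 0.94, under the minimum fold.

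Others of this group at 12 h were PYROXD2, a predicted mitochondrial oxidoreductase (-1.583 ± 0.19 with IL-1β and 1.18 ± 0.21 with the cotreatment), and NTHL1, a DNA glycosylase of base excision repair (-1.04 ± 0.14 and 1.03 ± 0.16). Without the 5 libraries that stood apart the latter was 0.77, under the minimum fold. Of 2 enzymes of sphingolipid metabolism, ceramide synthase CERS4 fell by 1.44 ± 0.16 and was 0.77 ± 0.18 higher with the cotreatment, and acid sphingomyelinase SMPD1 fell by 0.64 ± 0.17 and was 1.04 ± 0.18 higher. With budesonide alone at 12 h SMPD1 was at 12.6, 17.03, 17.45 and 16.89 TPM, against 6.65, 9.23, 9.04 and 8.99 TPM in NS. Its cotreatment libraries (9.45, 13.3 and 11.3 TPM) also lay above every NS library. MVK, mevalonate kinase, was at -0.02 ± 0.10 with IL-1β at 12 h and 0.47 ± 0.11 higher with the cotreatment.

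Of the 8 genes of secretion and secreted proteins, 7 passed downward with IL-1β at 12 h and 4 upward with the cotreatment. Besides PROC these included OLFML2A, an olfactomedin-like matrix protein. It was at 13.9, 11.9, 13.7 and 9.09 TPM in NS at 12 h, 4.38, 4.16, 3.88 and 1.96 TPM with IL-1β and 10.7, 9.39 and 5.96 TPM with the cotreatment, and no IL-1β library reached a cotreatment library. OLFML2A fell by 1.66 ± 0.25 and was 1.18 ± 0.27 higher with the cotreatment. Of the vesicle GTPases, RAB3D fell by 0.43 ± 0.09 at 12 h and was 0.51 ± 0.10 higher with the cotreatment, while RAB37 was at -0.02 ± 0.23 in that comparison and 0.78 ± 0.21 lower at 24 h. RAB37, MXD3, B4GAT1 and SAPCD2 were the 4 genes that passed downward with the cotreatment at 24 h without a minimum fold change (18.6% of all genes tested). The remaining 17 genes had no role assigned here, and DIPK1B among them was called up with the cotreatment at both times (1.31 ± 0.12 and 1.12 ± 0.11). With budesonide alone DIPK1B was at 18.0 to 25.4 TPM at 12 h and 22.0 to 25.8 TPM at 24 h. These libraries lay above all NS libraries of the same time (13.9 to 16.1 and 12.2 to 13.3 TPM). At 24 h the cotreatment libraries (17.7 to 20.7 TPM) were also above every NS library.

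Budesonide alone, close to NS at 6 h by the rule, was examined at the other times. In limma 0 of the 95 genes were called at 1 h, with 0 at an unadjusted p under 0.05, and 0 at 2 h, with 1 higher and 7 lower. HDAC5 was called up at 12 h (3.01% of all genes tested were called up), and at 0.96 without the 5 libraries that stood apart it was under the minimum fold. At 24 h 4 were called up (4.1% of all) and 2 down (5.7% of all). Without a minimum fold change, 15 passed upward (12.5% of all) and 6 downward (15.5% of all) at 12 h, and 30 upward (19.5% of all) and 10 downward (21.6% of all) at 24 h. The 4 genes called up at 24 h were HDAC5 (1.96 ± 0.20), a class IIa histone deacetylase, YPEL3 (1.61 ± 0.17), a growth-restraining gene, THAP8 (1.06 ± 0.11) and MYOM2 (1.03 ± 0.41). The 2 called down were SAPCD2 (-2.49 ± 0.12), a regulator of spindle orientation, and MXD3 (-2.24 ± 0.18), a MAX partner that opposes MYC. MYOM2 lost its call without the libraries numbered 3 or 4 (adjusted p = 0.24 and 0.095).

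HDAC5 was at 7.88, 12.0 and 7.71 TPM in NS at 6 h, 3.23, 2.35, 4.42 and 2.83 TPM with IL-1β, and 5.82, 5.88, 7.65 and 6.14 TPM with the cotreatment. At 24 h it was at 7.15, 5.94, 6.34 and 5.87 TPM in NS, 9.01, 12.3, 11.4 and 9.68 TPM with IL-1β, 24.2, 20.1, 31.4 and 30.1 TPM with budesonide and 23.3, 21.2, 21.8 and 18.0 TPM with the cotreatment. The IL-1β libraries had thus moved from below NS to above it. IL-1β minus NS was -0.96 ± 0.20 at 12 h and 0.70 ± 0.20 at 24 h, a change of 1.66 ± 0.28 (adjusted p = 3e-05).

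SAPCD2 and MXD3 went the other way. SAPCD2 at 24 h was at 12.6, 12.8, 13.0 and 12.4 TPM in NS, 3.32, 2.70, 1.68 and 2.44 TPM with IL-1β, 1.59, 1.80, 2.01 and 2.02 TPM with budesonide and 1.94, 2.22, 1.75 and 1.62 TPM with the cotreatment. All treated libraries lay far below NS and overlapped among themselves. IL-1β minus NS changed from -0.65 ± 0.12 at 12 h to -2.15 ± 0.12 at 24 h (change -1.50 ± 0.18, adjusted p = 9.9e-09).

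MXD3 was at 7.75, 8.20, 4.83 and 9.37 TPM with IL-1β at 6 h and at 19.4, 17.4, 15.1 and 21.7 TPM with the cotreatment, against 22.6, 25.1 and 26.3 TPM in NS. At 24 h it was at 24.2, 24.5, 23.5 and 25.6 TPM in NS and at 5.42, 6.10, 4.97 and 4.00 TPM with IL-1β. Budesonide then gave 4.85, 7.45, 3.51 and 4.01 TPM and the cotreatment 4.22, 3.69, 2.40 and 4.32 TPM. Cotreatment minus IL-1β changed from 1.02 ± 0.19 at 12 h to -0.45 ± 0.18 at 24 h (change -1.47 ± 0.26, adjusted p = 0.00025), so MXD3 rose with the cotreatment at the earlier time and fell at the later. Without the 5 libraries that stood apart the 12 h value was 0.86, under the minimum fold, and the change -1.23 (adjusted p = 0.0065). Beside this, 21 of 28 genes of a cell cycle list were called down with IL-1β at 24 h and 26 of 28 with budesonide alone, and whether the fall of SAPCD2 and MXD3 was part of it was not tested.

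The change between 12 and 24 h was tested for all genes. For IL-1β against NS it was called for HDAC5 upward (0.323% of all genes tested) and SAPCD2 downward (0.908% of all). For the cotreatment against IL-1β it was called downward for MXD3 and MISP3 (0.488% of all, against 0.24% upward). MISP3 changed by -1.04 ± 0.26 (adjusted p = 0.013), and without the 5 libraries that stood apart by -0.71 (adjusted p = 0.12).

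Against NS, the cotreatment was called lower at 2 h for FZD2, ALX1 and NR2F2 (0.518% of all genes tested), which budesonide had not brought back by then (-1.35 ± 0.14, -1.45 ± 0.11 and -1.12 ± 0.19). At 12 h 0 were called lower in limma (3.46% of all), with 26 at an unadjusted p under 0.05 and 18 at an adjusted p of at most 0.05 below the minimum fold change. No share of all genes is given for the 26 and the 18. CEMP1 was called higher (3.39% of all). At 24 h CDKN2C, MXD3, SAPCD2 and ITM2A were called lower (5.73% of all) and HDAC5 higher (4.28% of all). The ITM2A libraries were low and overlapped, at 4.98, 3.72, 6.52 and 0.964 TPM in NS. With the cotreatment ITM2A was at 0.781, 0.236, 0.697 and 2.075 TPM. The median over the 95 genes was -0.24 at 12 h and -0.04 at 24 h.

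An interaction contrast, the effect of budesonide in IL-1β-treated cells minus its effect alone, was added after seeing the data. With no minimum fold change 27 of the 95 genes passed upward at 12 h (5.6% of all genes tested). At 24 h 16 passed upward (8.07% of all) and 3 downward (7.32% of all). At 12 h the interaction was 1.34 ± 0.34 for PROC, 1.21 ± 0.28 for PYROXD2, 1.14 ± 0.16 for LRRC45, 1.11 ± 0.25 for METTL7B and 1.09 ± 0.15 for MRAP2 (adjusted p = 0.0040, 0.0020, 4.4e-07, 0.0013 and 9e-08). In IL-1β-treated cells all 5 were raised by budesonide, while budesonide alone lowered LRRC45 and MRAP2 (-0.59 and -0.43) and the other 3 did not pass with budesonide alone. At 24 h the upward interaction met the minimum fold for MXD3, SAPCD2, MYH10 and MAP7D2. Of these, MXD3 and SAPCD2 were called down by budesonide alone and also passed downward with the cotreatment against IL-1β. For both, the upward interaction was thus not a return toward NS. The 3 downward genes were YPEL3 (-1.36 ± 0.24), HDAC5 (-1.003 ± 0.28) and THAP8 (-0.52 ± 0.15), all called up by budesonide alone at that time.

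The rule divides the 474 genes that IL-1β lowered at 6 h by the same limits of fold and NS level. Beside the 95, 229 were as flat with budesonide alone but gained less than 0.7 with the cotreatment, 65 were above 0.5 with budesonide alone and 85 below -0.5. At 12 h the median IL-1β minus NS was -0.65 in the 95, -0.73 in the 229, -0.80 in the 65 and -0.87 in the 85. The medians of cotreatment minus IL-1β at 12 h were 0.55, 0.29, 1.33 and -0.26, and at 24 h 0.42, 0.17, 1.29 and -0.25. Called up with the cotreatment at 12 h were 10.5% of the 95, 7.42% of the 229, 70.8% of the 65 and 0% of the 85. At 24 h these shares were 5.26%, 5.68%, 61.5% and 1.18%, so the restored genes were then not called more often than the 229. The classes were set by the 6 h values, and the difference between them at other times was not tested.

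**Figure D4:**
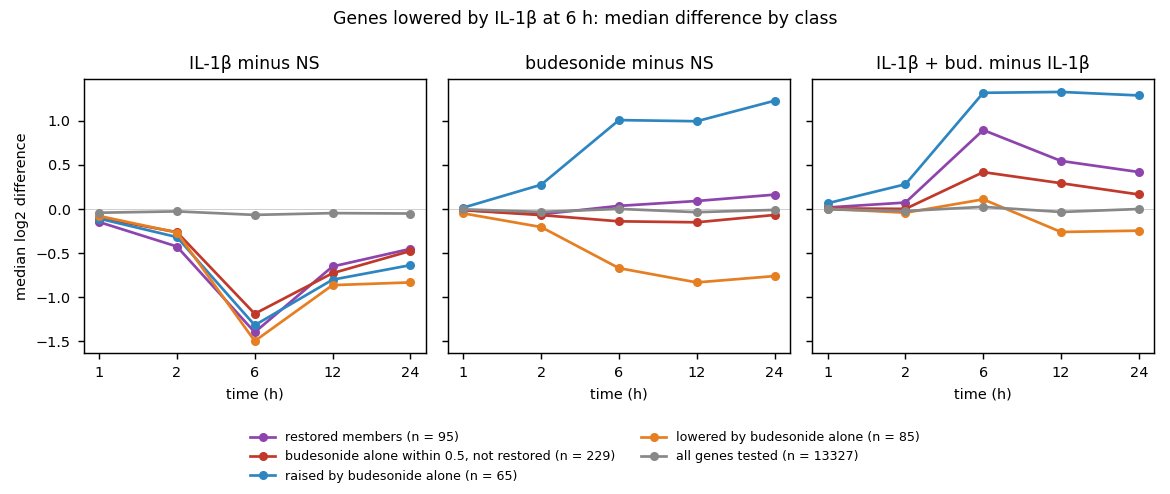
Median log2 difference (vertical) by time (h) for the 95 restored genes, the other classes of genes that IL-1β lowered at 6 h, and all genes tested, in 3 comparisons. The classes run close together for IL-1β minus NS, and in the panel for cotreatment minus IL-1β the restored genes lie between the genes raised by budesonide alone (1.33 at 12 h) and the not restored genes (0.29 at 12 h).

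Members were few in the pathway lists drawn up for these cells. CDH1 and CGN were among 26 tested genes of epithelial junction and polarity, NR2F2 among 28 nuclear receptors, JAG2 among 21 Notch, ID and BMP genes, YPEL3 among 29 FOXO and growth restraint genes, and ERBB3 among 25 growth factor receptors and adaptors. With IL-1β at 12 h, 4 junction genes were called down and 2 up (3.65% of all genes tested were called up), 3 nuclear receptors down and 1 up, 2 Notch genes down and 1 up, 1 FOXO gene up and 4 growth factor receptors down. With the cotreatment against IL-1β at 12 h, 5 junction genes were called up and 3 down (3.53% of all genes tested were called down). So were 1 nuclear receptor up and 3 down, 2 Notch genes up and 3 down, 6 FOXO genes up, and 1 growth factor gene up and 2 down. LLGL2, a polarity gene outside the 95, was at -1.46 with IL-1β and 1.52 with the cotreatment against IL-1β, and THRA, a thyroid hormone receptor, at -1.66 and 1.97.

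The lists below held no member, and they moved in different ways. Of all genes tested, 3.08% were called down and 3.65% up with IL-1β at 12 h. With the cotreatment against IL-1β it was 3.53% down and 3.04% up. Of 20 GR targets, 16 were called up with the cotreatment against IL-1β at 12 h, and 2 down and 4 up with IL-1β. Of 18 NF-κB pathway genes 13 rose with IL-1β and 2 fell with the cotreatment, and of 19 interferon-stimulated genes 18 rose and 16 fell. With IL-1β at 12 h, 8 of 32 genes of drug, bile acid and lipid metabolism fell, 6 of 28 cell cycle genes and 1 of 14 endodermal and hepatic transcription factors. With the cotreatment 4, 1 and 1 of these were called down, and 1 metabolic gene up.

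The 95 genes were also compared by sequence features that the rule had not used. An annotated transcript was matched for 93. Its GC content had a median of 57.3%, against 48.6% over all genes tested and 53.4% in the 229 lowered genes that were not restored, and its length a median of 3176 bases against 3256. GC content moved with the response in the other genes too. Among genes outside the 95, median IL-1β minus NS at 12 h went from 0.04 in the lowest GC quintile to -0.19 in the highest, and cotreatment minus IL-1β from -0.22 to 0.15. In the highest quintile, which held 43 of the 95, the members' medians were -0.65 and 0.67. At 24 h the medians of the other genes in that quintile were -0.03 and 0.0048 while those of the members were -0.37 and 0.41. The part of GC content in the result was not tested.

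Reads of some members could have been assigned to near-identical copies. Over 20% of the 31-base words of the transcript were shared with other genes for PVRIG, the pseudogene GTF2IP4, PDE8B, ORAI3, STAG3 and DNAAF3, so their values are less certain. CASTOR3 and COLCA2, which had no matched transcript, could not be checked.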

How the data were processed

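Poly(A) RNA from 78 libraries of A549 cells was analysed. Per the labels and methods, stranded libraries were pseudoaligned by the authors to the GRCh38 transcriptome in kallisto, followed by normalization in sleuth. The deposited gene-level table holds TPM that the authors rescaled between libraries, treated here as a normalized signal. The authors' comparison tables (fold changes, adjusted p-values) were not used, nor was 1 column whose library the labels do not list. Read counts were not given, so depth is unknown and no counting interval is given. A low level carries more relative error than a high one.

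Values were taken as log2(TPM + 0.5). The 13327 genes reaching 1 TPM in 3 or more libraries were fitted in limma 3.58.1 under R 4.3.3 with 1 mean per group, trended moderation and 58 residual degrees of freedom, after a test on simulated data. Calls needed an adjusted p of at most 0.05 and a log2 difference of at least 1. Replicate numbers were not used as a block, since the labels do not tie them to experiments. Values after ± are standard errors.

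The 95 genes, the lists and the role groups were chosen with earlier results of these data known. Named were the 8 genes lowest with IL-1β at 6 h, the 8 with the highest mean cotreatment difference at 12 and 24 h, up to 8 called in both directions, the 5 most abundant, list members, genes called with budesonide alone at 24 h, and those nearest the limits. Others named for their role were chosen after their values were seen. Alternatives were another pseudocount, low-value filters, median-of-ratios and quantile scaling, no minimum fold, a replicate block, a fit without 6 h and leaving out libraries. One marker and one gene list are not reported here.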

Additional observations from a re-analysis of the deposited data

Results flagged for a closer look

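Within groups of 4 libraries, the library at one end was compared with the range of its group for 10 leading genes at 6, 12 and 24 h and for the mean over the 95 genes at every time, 118 sets in all. A test of this kind marks about 1 in 20 sets by chance, and 7 were marked, none in the 5 libraries that stood apart. ERBB3 in NS at 12 h was at 34.82 TPM in replicate 4 against 13.2 to 15.9 TPM in the others. LBH at 6 h was at 135.2 TPM in budesonide replicate 4 against 97.5 to 98.3 TPM, and at 70.09 TPM in cotreatment replicate 4 against 49.0 to 51.1 TPM. CXXC5 with IL-1β at 24 h was at 18.68 TPM in replicate 3 against 17.1 to 17.3 TPM. SDC1 was at 102.9 TPM in budesonide replicate 1 at 6 h against 98.4 to 99.1 TPM, and at 80.79 TPM in cotreatment replicate 1 at 24 h against 69.0 to 69.6 TPM. The mean over the 95 genes was -0.225 in IL-1β replicate 2 at 1 h against -0.147 to -0.131.

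The effects at 12 and 24 h differed, by limma's test of the difference, for 4 of the 95 genes. The IL-1β effect changed by 1.66 for HDAC5 and by -1.5 for SAPCD2. The difference between cotreatment and IL-1β changed by -1.47 for MXD3 and by -1.04 for MISP3.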

How the results depend on the processing

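Direction was kept in all 1403 values recomputed for the named genes' 117 comparisons at an adjusted p of at most 0.05. Of these 1352 stayed on the same side of the call, 42 lost it and 9 gained it. Of comparisons past that adjusted p only under an alternative, 6 calls were gained: ERBB3 with the cotreatment at 12 h under 3 settings, CDH1 and LBH in the same comparison without the 5 libraries that stood apart, and CGN with IL-1β at 24 h without replicate 4. Without a minimum fold change the counts over 1, 2, 12 and 24 h rose from 28 to 77 (down with IL-1β), from 13 to 70 (up with the cotreatment), from 6 to 44 (budesonide alone) and from 7 to 47 (cotreatment below NS), by construction. The changes between 12 and 24 h rose from 2 to 12 and from 2 to 7. The count for the cotreatment change fell from 2 to 1 with a pseudocount of 1, a mean of at least 5 TPM, or without the 5 libraries that stood apart. MISP3 then fell under the minimum fold, was not tested, or did not pass. Quantile normalization left 56 genes in the rule, 51 of them shared with the 95, and a pseudocount of 1 left 68 (66 shared). The cause was not tested.

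Leaving out all libraries of 1 number gave 28 to 30, 11 to 16, 6 to 6, 6 to 8, 2 to 3 and 1 to 2 in the same order, and leaving out 1 library at 6 h gave 89 to 108 genes, 79 to 93 of them shared. Without the 5 libraries that stood apart, an alternative chosen after seeing the data, the first 4 counts were 28, 13, 6 and 8. With the replicate number as a block, the counts were 29, 13, 6, 7, 2 and 2, and the rule gave 104 genes (81 shared). Deviations of libraries with the same number had a median correlation of 0.198, against -0.08 for different numbers, and 615 of 723 pairs were over 0.1. In 74 of 78 libraries the best match was with the own number, a hint from the data and not from the labels. Among the named genes the block ended the call of MXD3 (0.96) and gained that of ERBB3 (1.23, adjusted p = 0.0034 in limma), both with the cotreatment at 12 h. Genes of low level are limited by the unknown depth.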
